A study of Mus musculus with 20 samples.

Results

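The genes described here are 58 genes of DNA copying and of the cell division cycle, out of 8251 mouse genes that had a probe set naming that gene alone. They were chosen by symbol, with earlier results of these data known. Taken were the replicative helicase subunits Mcm2 to Mcm7, the cyclins of classes A to E, G and H, and the numbered cyclin-dependent kinases (CDKs). Also taken were the CDK inhibitors and other genes whose symbol begins with Cdkn, without Cdkn1a, and every gene called Cdc and a number. Pcna, Mki67, Top2a, Mybl2 and Rb1 completed the choice. A choice by name also takes in Cdc genes that act outside the cell cycle, and these are kept apart below. The 58 genes had 73 probe sets, 15 genes had more than 1, and the brightest probe set by its mean over the 19 grouped arrays stands for each gene. Of the 58 genes, 44 were bright enough to be tested, and 14 lay among the dimmest probe sets and were not.

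RNA of mouse heart ventricle was measured on Affymetrix arrays to ask what the tetracycline transactivator (tTA) does to hearts of the FVBN strain. The groups were tTA with Doxy (tTA + Doxy, 5 arrays), tTA without it (tTA, 8 arrays), FVBN mice with Doxy (FVBN + Doxy, 4 arrays) and FVBN control (2 arrays). Keywords in the labels name the alpha MHC promoter, a promoter active in heart muscle cells, as the driver of tTA, and Doxy is taken here as doxycycline, which keeps tTA off its target DNA. The labels give no age, sex, dose, length of treatment or number of transgenic lines, and they do not state that arrays came from separate animals, so p-values measure only the spread between arrays. No run of array numbers holds more than 1 group, and cohort and group therefore cannot be told apart. The tTA arrays form 2 runs of numbers, with 9310 and 9322 far from the other 6, and without these 2 arrays the call of Ccnd3 described below ended (limma adjusted p = 0.0535) while the other member calls held. All 14 heart muscle markers measured lay between the 85.42nd and the 99.99th percentile of probe set brightness. In whole ventricle, fewer cells of a type and less RNA per cell cannot be told apart.

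The MCM proteins form a ring that unwinds DNA at replication origins. D-type cyclins with Cdk4 start the cycle, partly by releasing E2F transcription factors from the retinoblastoma protein, and cyclins E, A and B with Cdk2 and Cdk1 carry it through DNA synthesis and mitosis, while CDK inhibitors hold it back. Most heart muscle cells of adult mice have left this cycle, so that transcripts of dividing cells would be scarce in ventricle RNA. By brightness, Ccna2 lay at the 79.7th percentile of probe sets, Mcm5 at the 81.4th, Top2a at the 24.15th and Rb1 at the 14.67th. Whether brightness follows transcript abundance was not tested.

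The 3 members that fell in a genotype comparison, the helicase genes Mcm2 and Mcm3 and the cyclin gene Ccng2, are shown first by their promoters. RefSeq promoters of GRCm38.p6 run from 250 bases before to 50 bases after a gene's start, and are written 5′ to 3′ on the gene's own strand. Mcm2 lies on the minus strand with its promoter at chr6:88898731-88899030, Mcm3 on the minus strand at chr1:20820263-20820562 and Ccng2 on the plus strand at chr5:93267323-93267622. Capitals mark E2F-type words, searched as TTCCCGC, or TTCGCGC, or TTGCCGC, or TTGGCGC on both strands.
Mcm2: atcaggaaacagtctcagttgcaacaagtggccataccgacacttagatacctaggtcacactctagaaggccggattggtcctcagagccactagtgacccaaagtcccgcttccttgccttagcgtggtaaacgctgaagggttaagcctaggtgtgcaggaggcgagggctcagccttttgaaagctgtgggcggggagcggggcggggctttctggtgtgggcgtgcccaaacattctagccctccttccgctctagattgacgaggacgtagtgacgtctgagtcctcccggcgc
Mcm3: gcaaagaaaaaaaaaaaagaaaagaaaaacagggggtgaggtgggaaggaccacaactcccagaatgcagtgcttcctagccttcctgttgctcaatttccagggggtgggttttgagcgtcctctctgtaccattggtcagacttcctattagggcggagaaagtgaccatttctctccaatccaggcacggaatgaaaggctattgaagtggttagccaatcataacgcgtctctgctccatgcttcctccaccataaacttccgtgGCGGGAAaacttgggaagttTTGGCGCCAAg
Ccng2: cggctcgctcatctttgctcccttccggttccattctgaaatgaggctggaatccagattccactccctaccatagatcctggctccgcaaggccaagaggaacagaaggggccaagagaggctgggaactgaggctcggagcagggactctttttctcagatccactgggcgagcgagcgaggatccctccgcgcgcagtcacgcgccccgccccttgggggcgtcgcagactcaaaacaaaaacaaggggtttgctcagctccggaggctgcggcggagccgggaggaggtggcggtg
Mcm3 held 3 matches, which begin at positions 20, 40 and 43, counted from 1 at the gene's start, and the last 2 of them overlap. Neither Mcm2 nor Ccng2 held one of these words in its window. Of 56 promoters of the 48 members with an entry, 28.6% held an E2F-type word, against 9.57% of all 32851 mouse promoters. The CCAAT box, searched as CCAAT, stood 3 times in the Mcm3 window and 1 time in that of Mcm2, and it occurred in 55.4% of the members' promoters and 37.4% of all. The cell cycle homology element, searched as TTTGAA, stood 1 time in the Mcm2 window and occurred in 23.2% of the members' promoters and 17.9% of all. The forkhead word GTAAACA stood in none of the 3 windows and occurred in 5.36% of the members' promoters and 3.65% of all. All words were searched on both strands. A match is a description of the letters and not a binding site.

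Values below are log2 intensities of 1 probe set after quantile normalization, and fold changes are differences on that scale with their standard error (SE). Where single arrays are given, tTA + Doxy arrays follow the order 7399, 7424, 7485, 7486 and 7488, FVBN + Doxy arrays 8337, 8338, 8340 and 8341, and FVBN control arrays 8177 and 8182. For the 8 tTA arrays the lowest, the median and the highest value are given. A change was called at a limma p below 0.05 after Benjamini-Hochberg adjustment over the 7453 probe sets tested. Unless another comparison is named, rose and fell describe tTA arrays against FVBN arrays. With or without Doxy then names the pair compared, and not a response to Doxy.

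Few members were called in the genotype comparisons, as were few of all probe sets tested. With Doxy on both sides, 4 of 44 tested members were called (9.09%), against 5.86% of all probe sets tested. Mcm2, Mcm3 and Ccng2 fell and Cdc5l rose in tTA + Doxy, so that lower calls made up 6.82% of the 44 (1.6% of all probe sets) and higher calls 2.27% (4.27%). At an unadjusted p below 0.05 it was 12 of 44 (27.3%, against 21.1% of all). Without Doxy, tTA against FVBN control gave 1 call among the 44 (2.27%), the fall of Ccng2, against 2.79% of all probe sets called and 1.82% called lower. Here 5 of 44 had an unadjusted p below 0.05 (11.4%, against 16.7% of all). When both genotype differences were averaged, which uses all 19 arrays, 4 of 44 were called (9.09%) against 9.08% of all: Ccng2 and Mcm2 were lower (4.55%, against 4.31% of all) and Cdk18 and Ccnd3 higher (4.55%, against 4.78%) in tTA. The average uses the same arrays as the pairwise comparisons and is no separate evidence. When all 12422 probe sets were tested in place of the brightest 60%, no member passed by its brightest probe set in either pairwise comparison, with limma adjusted p-values of 0.0635 to 0.0711 for the 5 calls. Median log2 fold changes of the 44 were -0.0351 with Doxy (-0.0148 over all probe sets), 0.00676 without it (0.0133) and -0.00797 in the average (0.000615).

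**Figure D1:**
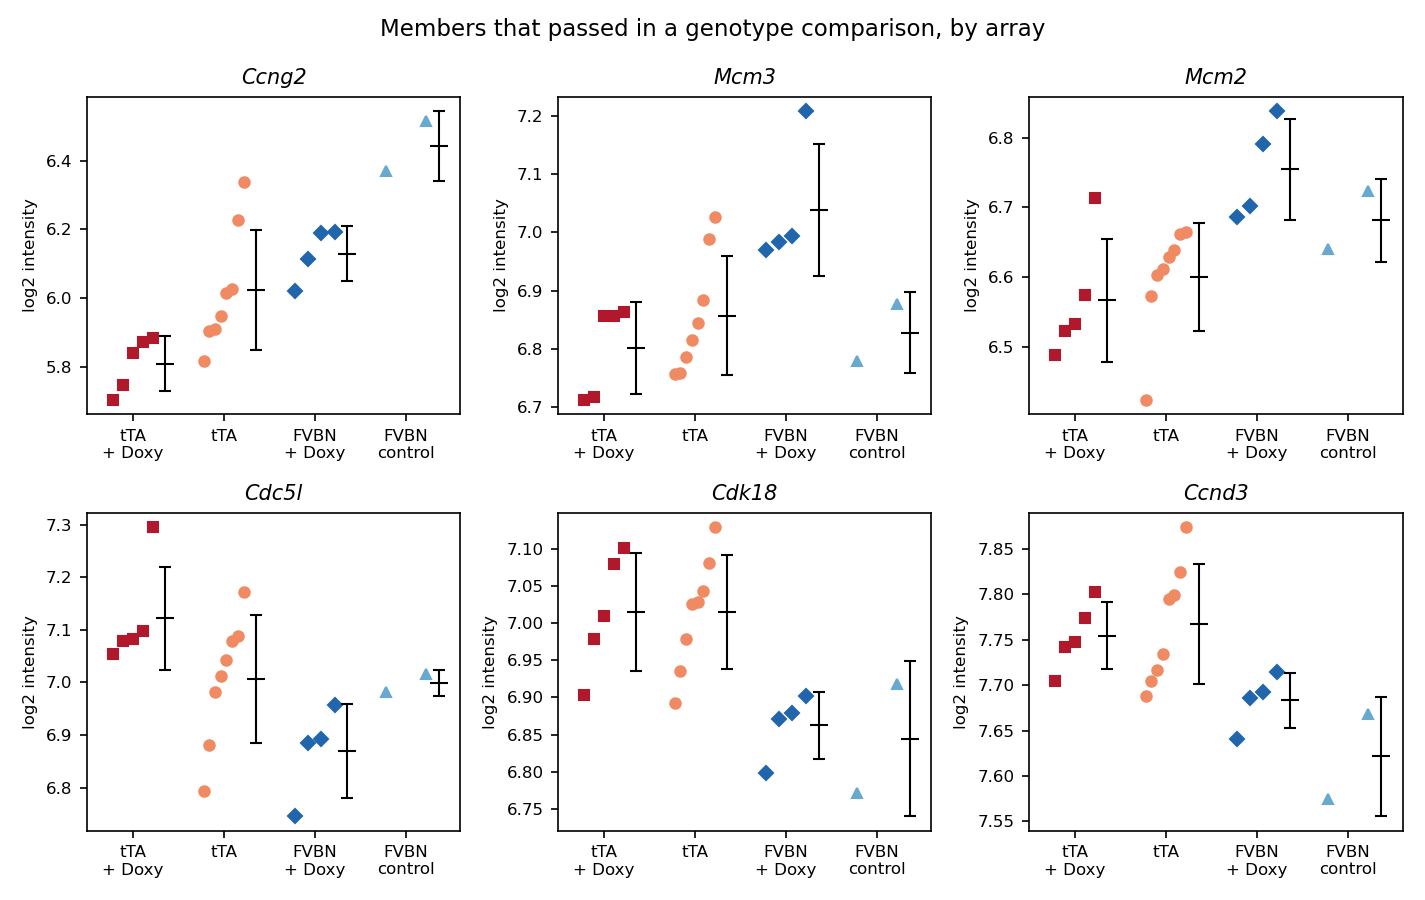
Log2 intensity on every array for the 6 members called in a genotype comparison, with the 4 groups along each horizontal axis and each panel on its own scale. Points are arrays, and bars give the mean and SD of a group. Ccng2 on all 5 tTA + Doxy arrays lies below all 4 FVBN + Doxy arrays, and its 2 FVBN control arrays are the highest of all.

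Of the 6 helicase subunits 4 were tested, and all 4 differences with Doxy were below 0, as were 56.1% of all probe sets tested. Mcm3 read 6.86, 6.86, 6.86, 6.72 and 6.71 on tTA + Doxy arrays, against 7.21, 6.97, 6.99 and 6.98 on FVBN + Doxy arrays. Every tTA + Doxy array was lower than every FVBN + Doxy array, and array 8337 stood above the other FVBN + Doxy arrays. The log2 fold change was -0.24 ± 0.062 (SE, limma adjusted p = 0.0257). Without Doxy, Mcm3 read 6.76, 6.83 and 7.03 on tTA arrays and 6.78 and 6.88 on FVBN control arrays, so that these groups overlapped, with a difference of 0.03 and a 95% interval of -0.12 to 0.18. The interaction, which tests whether the genotype difference itself depends on Doxy, was -0.27 ± 0.096 for Mcm3 and did not pass (limma adjusted p = 0.264). It rests in part on FVBN hearts, where Mcm3 differed by 0.21 ± 0.080 between FVBN + Doxy and FVBN control (limma adjusted p = 0.372), a comparison that uses the same FVBN + Doxy arrays. The call with Doxy ended without array 8337, 7486 or 7488, with limma adjusted p-values of 0.0647 to 0.11.

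A further Mcm3 probe set was too dim for the main test and pointed the same way with Doxy. It read 4.40, 4.28, 4.41, 4.40 and 4.41 on tTA + Doxy arrays and 4.56, 4.52, 4.60 and 4.67 on FVBN + Doxy arrays. The groups did not overlap, and in a fit of all probe sets the difference was -0.20 ± 0.045 (limma adjusted p = 0.0274). The brighter Mcm3 probe set has the suffix _s_, which Affymetrix gives to sets that may match transcripts of more than 1 gene. In the same fit of all probe sets it had an adjusted p of 0.0656. Without Doxy the signs differed: the dim probe set had -0.09 ± 0.053 (limma adjusted p = 0.543) and the brighter one 0.03. In the average of both genotype differences the dim one had -0.15 ± 0.035 (limma adjusted p = 0.0256, fit of all probe sets). The brighter one had -0.10 ± 0.048 there and did not pass in the main test (limma adjusted p = 0.213).

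Mcm2 read 6.52, 6.71, 6.58, 6.49 and 6.53 on tTA + Doxy arrays and 6.79, 6.70, 6.69 and 6.84 on FVBN + Doxy arrays. The groups overlapped through tTA + Doxy array 7424, and the other 4 tTA + Doxy arrays were below every FVBN + Doxy array. Mcm2 fell by 0.19 on the log2 scale (SE 0.054, limma adjusted p = 0.0402). Without Doxy it read 6.42, 6.62 and 6.67 on tTA arrays and 6.64 and 6.72 on FVBN control arrays, a difference of -0.08 ± 0.063 that did not pass (limma adjusted p = 0.552). All 8 tTA arrays lay below the mean of the FVBN control arrays, and the average of both differences was -0.13 ± 0.041 (limma adjusted p = 0.0434). Mcm2 lost its call with Doxy when any of FVBN + Doxy arrays 8337 and 8341 or tTA + Doxy arrays 7399, 7485, 7486 and 7488 was left out, with limma adjusted p-values of 0.0741 to 0.147. The averaged call ended with any of 11 arrays left out (0.0534 to 0.249).

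The other helicase genes gave no call. The brightest Mcm5 probe set read 7.58, 7.46, 7.44, 7.27 and 7.52 on tTA + Doxy arrays, against 7.56, 7.35, 7.62 and 7.54 on FVBN + Doxy arrays, a difference of -0.06 with a 95% interval of -0.19 to 0.07. Another tested Mcm5 probe set differed by -0.18 ± 0.091 (limma adjusted p = 0.271), so the probe sets of this gene gave differences of unlike size. Mcm5 without Doxy read 7.35, 7.45 and 7.55 on tTA arrays and 7.41 and 7.33 on FVBN control arrays. Mcm7 was closely grouped: 6.39, 6.46, 6.36, 6.39 and 6.40 on tTA + Doxy arrays, and 6.47, 6.48, 6.41 and 6.49 on FVBN + Doxy arrays, with a difference of -0.06 and an interval of -0.16 to 0.03. On arrays without Doxy the values were 6.34, 6.39 and 6.56 on tTA arrays and 6.45 and 6.41 on FVBN control arrays, and both pairs overlapped.

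Mcm4 and Mcm6 were too dim to be tested. Mcm4 read 5.06, 5.06, 4.99, 4.87 and 4.88 on tTA + Doxy arrays, 4.75, 4.95 and 5.11 on tTA arrays, 5.12, 4.87, 5.02 and 5.06 on FVBN + Doxy arrays and 4.91 and 4.99 on FVBN control arrays. Mcm6 read 4.01, 4.28, 4.23, 4.14 and 4.19 on tTA + Doxy arrays, 4.01, 4.16 and 4.46 on tTA arrays, 4.06, 4.17, 4.19 and 4.32 on FVBN + Doxy arrays and 4.11 and 4.14 on FVBN control arrays. All groups overlapped for both genes, and Mcm6 lay near the floor of 3.85.

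**Figure D2:**
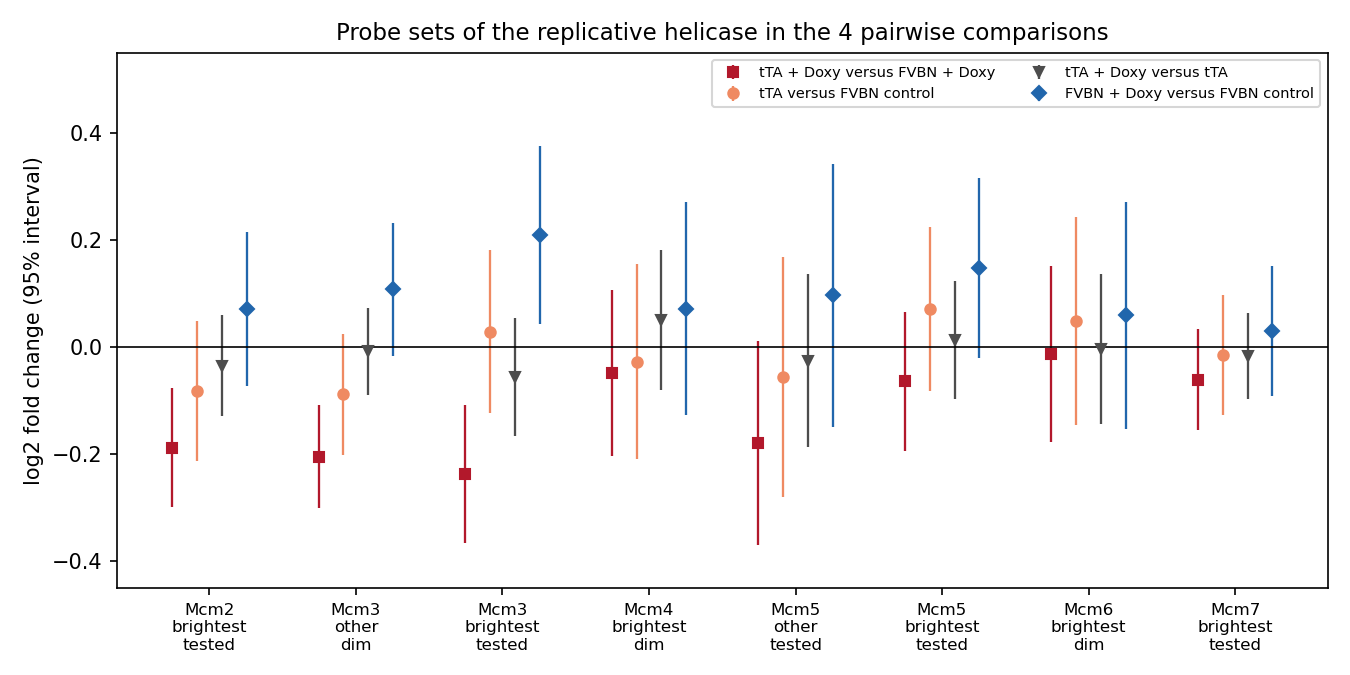
Log2 fold change with its 95% interval for each probe set of the helicase genes in the 4 pairwise comparisons, and whether the probe set was the brightest of its gene and bright enough to be tested. Intervals of both Mcm3 probe sets and of Mcm2 lie below 0 for tTA + Doxy versus FVBN + Doxy, while those of Mcm4, Mcm5, Mcm6 and Mcm7 include 0.

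The clamp protein and the markers of dividing cells gave no call. Pcna, the sliding clamp of DNA polymerases, read 7.54, 7.49, 7.45, 7.42 and 7.56 on tTA + Doxy arrays and 7.61, 7.43, 7.59 and 7.23 on FVBN + Doxy arrays, a difference of 0.02 with an interval of -0.11 to 0.16. In the pair without Doxy, values were 7.39, 7.49 and 7.58 on tTA arrays and 7.54 and 7.61 on FVBN control arrays, a difference of -0.09 with an interval of -0.25 to 0.06. The groups overlapped in both pairs. Mki67, the gene of the Ki-67 protein of dividing cells, had the widest spread of all tested members, with a pooled SD of 0.255 within groups against a median of 0.0918 over the 44. It read 6.23, 6.01, 5.77, 5.46 and 5.78 on tTA + Doxy arrays, 5.38, 5.76 and 6.14 on tTA arrays, 6.14, 5.69, 5.79 and 5.71 on FVBN + Doxy arrays and 6.05 and 5.58 on FVBN control arrays. Its intervals ran from -0.33 to 0.37 with Doxy and from -0.50 to 0.31 without, so sizeable differences of Mki67 were not detectable here. Another Mki67 probe set read the floor of 3.85 on 18 of the 19 arrays.

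Mybl2, which encodes the transcription factor B-Myb, read 6.81, 7.0, 6.87, 6.81 and 6.86 on tTA + Doxy arrays, against 7.01, 6.93, 7.0 and 7.11 on FVBN + Doxy arrays. Of the tTA + Doxy arrays, 7424 alone reached into the FVBN + Doxy range, and the difference of -0.14 ± 0.049 did not pass (limma adjusted p = 0.0982). Without Doxy, Mybl2 read 6.80, 6.87 and 6.97 on tTA arrays and 6.82 and 6.96 on FVBN control arrays, a difference of -0.02. Top2a, the topoisomerase that untangles chromosomes, and Rb1, the retinoblastoma gene, were too dim to be tested. Top2a read 4.54, 4.57, 4.62, 4.53 and 4.38 on tTA + Doxy arrays, 4.47, 4.62 and 4.74 on tTA arrays, 4.61, 4.58, 4.55 and 4.73 on FVBN + Doxy arrays and 4.58 and 4.74 on FVBN control arrays. Rb1 read 4.01, 3.89, 4.29, 4.21 and 4.11 on tTA + Doxy arrays, 3.97, 4.13 and 4.42 on tTA arrays, 3.94, 3.98, 4.03 and 3.89 on FVBN + Doxy arrays and 4.04 and 4.25 on FVBN control arrays. Groups overlapped between genotypes for both.

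None of the 6 tested cyclins of the core cycle was called in either pairwise genotype comparison. D-type cyclins receive growth signals. Ccnd3 read 7.80, 7.75, 7.77, 7.71 and 7.74 on tTA + Doxy arrays and 7.69, 7.69, 7.71 and 7.64 on FVBN + Doxy arrays. The pair without Doxy read 7.69, 7.77 and 7.87 on tTA arrays and 7.58 and 7.67 on FVBN control arrays. All 8 tTA arrays were above both FVBN control arrays, and the pair with Doxy overlapped only at array 7486. Its differences of 0.07 ± 0.043 with Doxy (limma adjusted p = 0.357) and 0.15 ± 0.051 without (limma adjusted p = 0.133) did not pass alone, and their average of 0.11 ± 0.033 did (limma adjusted p = 0.0434). That call ended when any of 13 of the 19 arrays was left out, with limma adjusted p-values of 0.053 to 0.288.

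Ccnd1 and Ccnd2 gave no call. Ccnd1 read 7.20, 7.42, 7.10, 7.20 and 7.10 on tTA + Doxy arrays and 7.52, 7.28, 7.29 and 7.37 on FVBN + Doxy arrays, a difference of -0.16 with an interval of -0.43 to 0.11. Without Doxy the values were 6.83, 7.23 and 7.59 on tTA arrays and 6.98 and 7.38 on FVBN control arrays. The spread of Ccnd1 among tTA arrays was wider than any of its group differences. Ccnd2 read 5.74, 5.89, 5.73, 5.91 and 5.64 on tTA + Doxy arrays and 5.87, 5.77, 5.80 and 5.99 on FVBN + Doxy arrays. In the absence of Doxy it read 5.72, 5.91 and 6.07 on tTA arrays and 5.83 and 5.84 on FVBN control arrays. Both pairs overlapped, with differences of -0.08 ± 0.067 and 0.08 ± 0.078.

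Among the cyclins of DNA synthesis and mitosis, Ccnb2 came nearest to a call. Cyclin B2 works with Cdk1 at entry into mitosis. It read 6.42, 6.37, 6.43, 6.27 and 6.43 on tTA + Doxy arrays and 6.68, 6.47, 6.62 and 6.62 on FVBN + Doxy arrays. The groups did not overlap, and the difference was -0.21 ± 0.066 (limma adjusted p = 0.0598). Ccnb2 passed with arrays weighted (limma adjusted p = 0.0349), with the brightest 40% of probe sets (0.0493) and with only the arrays compared (0.036). In the last of these settings Mcm2 did not pass. Without Doxy it read 6.31, 6.48 and 6.71 on tTA arrays and 6.39 and 6.49 on FVBN control arrays, with overlap and a difference of 0.03. The interaction of -0.24 ± 0.10 did not pass (limma adjusted p = 0.305).

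Ccna2, the cyclin of DNA synthesis and early mitosis, read 7.18, 7.31, 7.34, 7.21 and 7.38 on tTA + Doxy arrays and 7.51, 7.32, 7.39 and 7.41 on FVBN + Doxy arrays. On arrays without Doxy the values were 7.16, 7.36 and 7.60 on tTA arrays and 7.22 and 7.45 on FVBN control arrays. The pairs overlapped, with differences of -0.12 ± 0.069 and 0.04 ± 0.081. Ccne1, the partner of Cdk2 at the start of DNA synthesis, read 7.04, 7.0, 7.04, 7.02 and 6.97 on tTA + Doxy arrays and 7.08, 6.98, 7.0 and 7.13 on FVBN + Doxy arrays. In the pair without Doxy, values were 6.94, 7.08 and 7.20 on tTA arrays and 6.93 and 7.17 on FVBN control arrays, and differences of -0.03 ± 0.055 and 0.03 ± 0.064 did not pass. Ccne2 read the floor on all 19 arrays and Ccna1 on 18 of 19, so neither has a measured level.

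Cyclin G2, encoded by Ccng2, is an atypical cyclin tied to withdrawal from the cycle rather than to progress through it. Ccng2 read 5.70, 5.88, 5.87, 5.84 and 5.75 on tTA + Doxy arrays and 6.19, 6.02, 6.19 and 6.11 on FVBN + Doxy arrays. The pair without Doxy read 5.82, 5.98 and 6.34 on tTA arrays and 6.52 and 6.37 on FVBN control arrays. Both pairs were apart with no overlap, as were 11.4% of members and 9.71% of all probe sets with Doxy, and 9.09% and 12.7% without. The log2 fold change was -0.32 ± 0.082 with Doxy (limma adjusted p = 0.0219) and -0.42 ± 0.096 without (limma adjusted p = 0.018). The average was -0.37 ± 0.063 (limma adjusted p = 0.000547) and passed with each of the 19 arrays left out in turn, the highest adjusted p being 0.0124.

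With the beta-actin ratio described below as a covariate, the averaged difference of Ccng2 was -0.273 and did not pass (limma adjusted p = 0.107). The call without Doxy ended without FVBN control array 8177 (limma adjusted p = 0.321) and without array 8182 (limma adjusted p = 0.0786). The call with Doxy ended without any of FVBN + Doxy arrays 8337, 8340 and 8341 or tTA + Doxy arrays 7399 and 7488 (0.0515 to 0.0678). Ccng2 averaged lower with Doxy than without in both genotypes, with differences of -0.31 ± 0.11 in FVBN (limma adjusted p = 0.355) and -0.22 ± 0.069 in tTA (limma adjusted p = 0.385), and neither passed. These comparisons share arrays with the genotype comparisons. The interaction was 0.10 ± 0.13 (limma adjusted p = 0.719).

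Ccng1, a relative and a known target of p53, read 8.58, 8.60, 8.78, 8.67 and 8.49 on tTA + Doxy arrays and 8.93, 8.78, 9.07 and 8.56 on FVBN + Doxy arrays. Without Doxy the values were 8.27, 8.69 and 8.90 on tTA arrays and 8.79 and 8.93 on FVBN control arrays. Values overlapped in both pairs, and differences of -0.21 ± 0.12 (limma adjusted p = 0.345) and -0.25 ± 0.15 (limma adjusted p = 0.415) did not pass. Ccnc, whose cyclin pairs with Cdk8, was too dim to be tested.

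The kinases at the centre of the cycle gave no call. Cdk1 read 6.75, 6.66, 6.53, 6.43 and 6.48 on tTA + Doxy arrays and 6.76, 6.63, 6.65 and 6.73 on FVBN + Doxy arrays, a difference of -0.12 with an interval of -0.25 to 0.01. In the absence of Doxy it read 6.48, 6.61 and 6.71 on tTA arrays and 6.68 and 6.56 on FVBN control arrays. Cdk4, the partner of the D-type cyclins, read 8.74, 8.69, 8.57, 8.55 and 8.71 on tTA + Doxy arrays and 8.68, 8.62, 8.69 and 8.62 on FVBN + Doxy arrays. Its groups overlapped closely, with a difference of 0.00 and an interval of -0.13 to 0.14. Without Doxy Cdk4 read 8.48, 8.62 and 8.79 on tTA arrays and 8.72 and 8.46 on FVBN control arrays. Cdk2 was too dim to be tested and read 5.32, 5.23, 5.32, 5.28 and 5.33 on tTA + Doxy arrays, 5.28, 5.37 and 5.57 on tTA arrays, 5.27, 5.23, 5.41 and 5.21 on FVBN + Doxy arrays and 5.32 and 5.30 on FVBN control arrays.

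Of the 6 tested kinases outside the core cycle, Cdk18 was called, in the average only. Cdk18 belongs to the PCTAIRE family of kinases. It read 7.08, 7.01, 6.98, 6.90 and 7.10 on tTA + Doxy arrays and 6.90, 6.88, 6.87 and 6.80 on FVBN + Doxy arrays. Without Doxy it read 6.89, 7.03 and 7.13 on tTA arrays and 6.92 and 6.77 on FVBN control arrays. The pair with Doxy was apart by a narrow margin and the pair without overlapped. Differences were 0.15 ± 0.052 (limma adjusted p = 0.0852) and 0.17 ± 0.061 (limma adjusted p = 0.145), with an average of 0.16 ± 0.040 (limma adjusted p = 0.0124). Without FVBN control array 8182 the average no longer passed (limma adjusted p = 0.16). Cdk8, a kinase of the Mediator complex, had -0.17 ± 0.077 without Doxy and 0.03 ± 0.065 with it, and neither passed. Cdk5, Cdk7, Cdk9 and Cdk16 had differences between -0.07 and 0.04 in both pairs, none of which passed, and Cdk14 was too dim to be tested.

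None of the 6 tested members among the CDK inhibitors and their relatives by name was called. Cdkn1a, which encodes the inhibitor p21, is not a member, and it rose by 0.59 ± 0.10 (SE, limma adjusted p = 0.0284) in FVBN + Doxy against FVBN control, where another of its probe sets differed by 0.23 ± 0.063 (limma adjusted p = 0.258). Cdkn1c, which encodes p57 and is imprinted, varied most among the 6. It read 6.03, 5.82, 6.35, 6.21 and 6.21 on tTA + Doxy arrays and 5.94, 5.91, 6.01 and 5.83 on FVBN + Doxy arrays, a difference of 0.20 with an interval of -0.07 to 0.46. On arrays without Doxy the values were 5.99, 6.26 and 6.78 on tTA arrays and 6.53 and 6.14 on FVBN control arrays, with overlap and a difference of -0.05. FVBN + Doxy arrays were all below the FVBN control arrays, by -0.41 ± 0.16, and this did not pass (limma adjusted p = 0.394). Cdkn2c, which encodes p18, read 6.48, 6.39, 6.36, 6.37 and 6.40 on tTA + Doxy arrays and 6.52, 6.37, 6.46 and 6.46 on FVBN + Doxy arrays. In the pair without Doxy, values were 6.35, 6.48 and 6.55 on tTA arrays and 6.48 and 6.50 on FVBN control arrays. Its groups overlapped, and differences of -0.05 ± 0.047 and -0.01 ± 0.056 did not pass.

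Cdkn1b, which encodes p27, was too dim to be tested and read 4.60, 4.76, 4.57, 4.64 and 4.63 on tTA + Doxy arrays, 4.56, 4.64 and 4.96 on tTA arrays, 4.63, 4.74, 4.59 and 4.64 on FVBN + Doxy arrays and 4.66 and 4.81 on FVBN control arrays. All groups overlapped. Cdkn2a, Cdkn2d, Cdkn3 and Cdkn2aipnl had differences from -0.06 to 0.10 in both pairs, with no call, and Cdkn2b was too dim to be tested.

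The Cdc genes fall into groups by function. Of 5 that act in replication or switch CDKs on, Cdc45, Cdc25a and Cdc25c were tested, and their differences with Doxy of -0.07, -0.11 and -0.07 did not pass. Cdc6, which loads the helicase, was too dim, and Cdc7, which activates it, read the floor on all 19 arrays. All 5 genes that act in attaching ubiquitin were tested without a call. Cdc20 and Cdc23 of the anaphase-promoting complex had -0.14 ± 0.062 and -0.12 ± 0.045 with Doxy (limma adjusted p = 0.2 and 0.114). Another Cdc23 probe set, at 0.08 ± 0.049, pointed the other way. Cdc34, a ubiquitin-conjugating enzyme, had -0.21 ± 0.073 without Doxy (limma adjusted p = 0.128), and Cdc16 and Cdc26 differed by at most 0.08 with Doxy.

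Cdc5l, despite its name, encodes a part of the pre-mRNA splicing machinery. It read 7.10, 7.08, 7.08, 7.30 and 7.05 on tTA + Doxy arrays and 6.75, 6.89, 6.89 and 6.96 on FVBN + Doxy arrays. Every tTA + Doxy array was above every FVBN + Doxy array, and array 7486 stood above the other tTA + Doxy arrays. Cdc5l rose by 0.25 ± 0.066 (SE, limma adjusted p = 0.0252), and the call ended without array 7486 or FVBN + Doxy array 8337, with limma adjusted p-values of 0.0702 and 0.0983. A dimmer Cdc5l probe set had 0.14 ± 0.038, with no overlap (limma adjusted p = 0.0616 in the fit of all probe sets). Without Doxy, Cdc5l read 6.79, 7.03 and 7.17 on tTA arrays and 7.02 and 6.98 on FVBN control arrays, with overlap and a difference of 0.01. The interaction of 0.24 ± 0.10 did not pass (limma adjusted p = 0.298). Cdc42, a small GTPase, gave no call, nor did Cdc42ep4, Cdc42se1 and Cdc42se2, which are named after it. The chaperone partner Cdc37 and Cdc123 gave no call either, and Cdc73 of a transcription elongation complex was too dim to be tested.

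**Figure D3:**
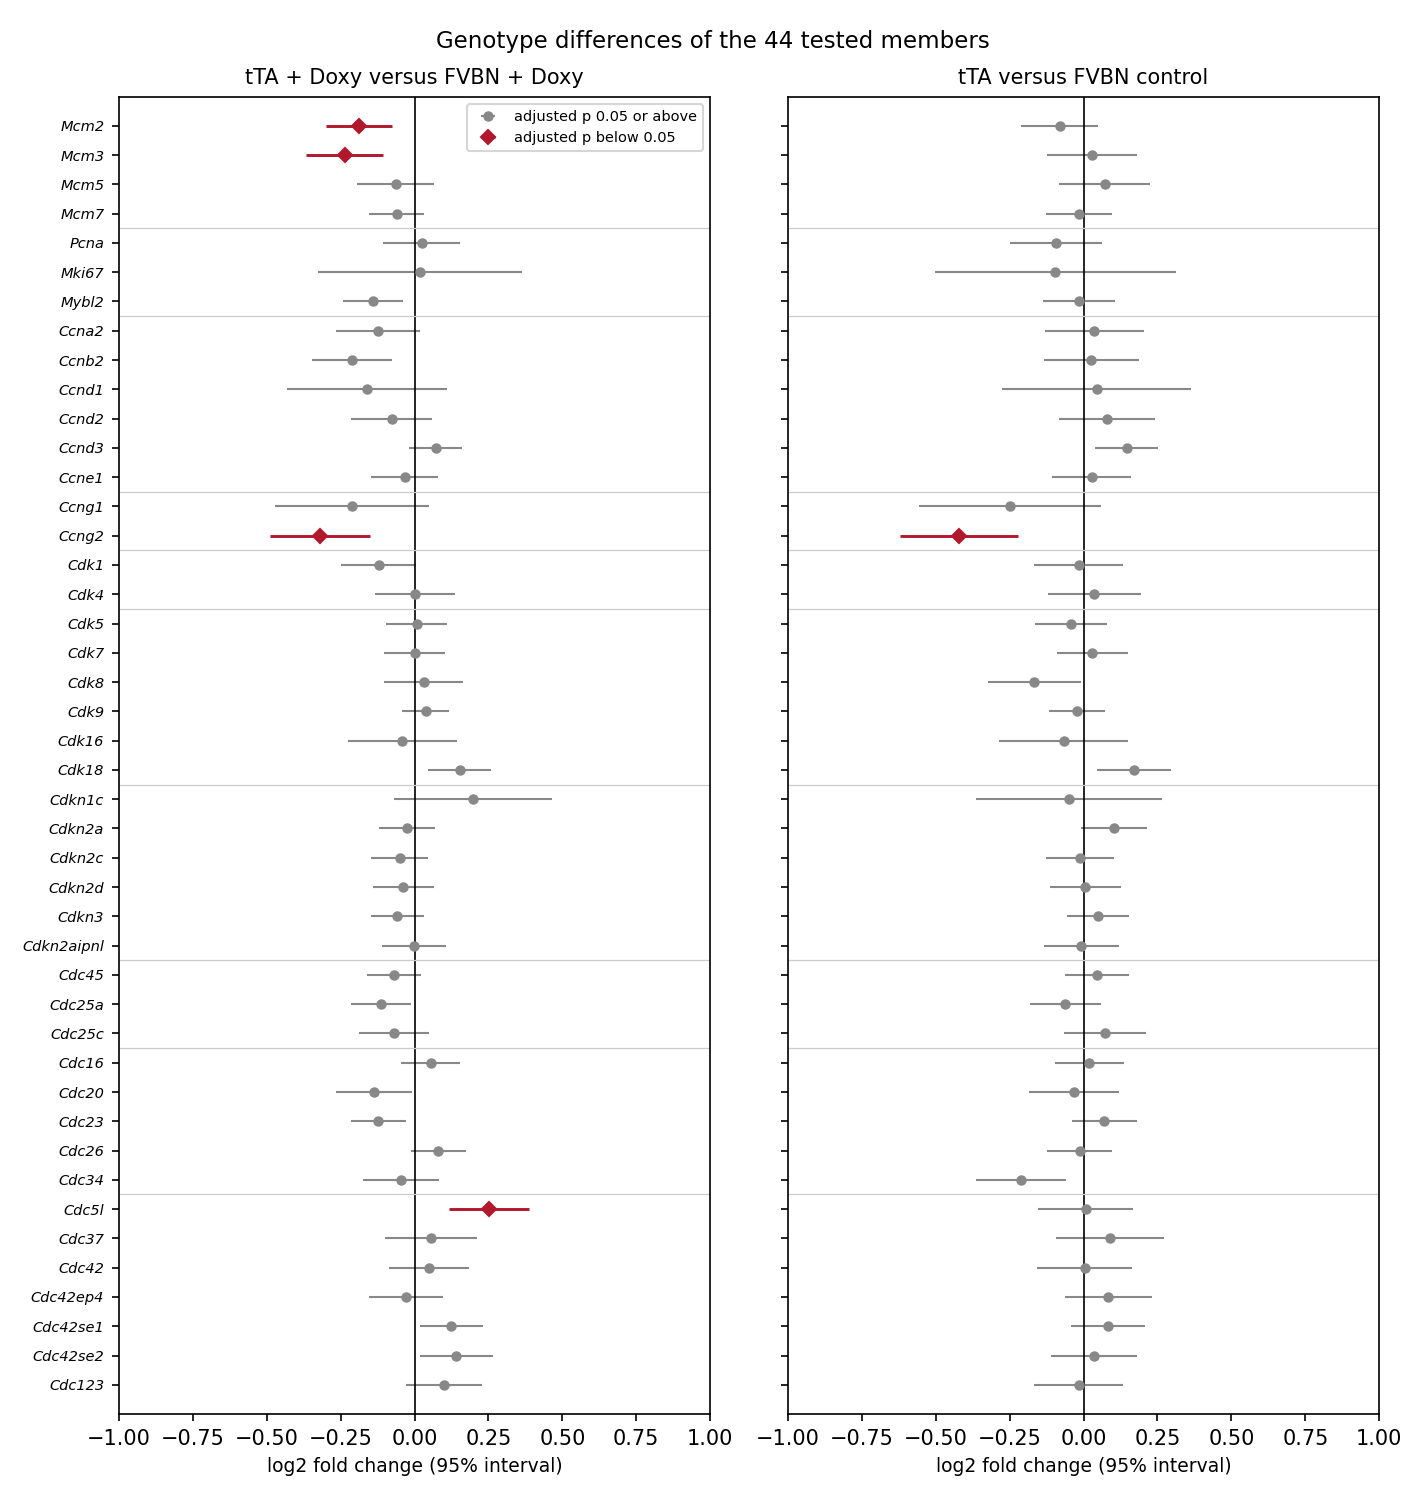
Log2 fold changes with 95% intervals of the 44 tested members, grouped by role with grey lines between groups, for tTA + Doxy versus FVBN + Doxy on the left and tTA versus FVBN control on the right. Red diamonds mark the 4 and 1 members called, and every interval on the left lies within 0.5 on either side of 0.

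Doxy gave no call among the members, which leave out Cdkn1a. In FVBN + Doxy against FVBN control 0 of 44 members passed in limma, against 0.0403% of all probe sets, and 4 members had an unadjusted p below 0.05 (9.09%, against 11.8% of all). Those 4 were Ccng2, Cdkn1c, Mcm3 and Cdc23. In tTA + Doxy against tTA 0 of 44 passed, against 0.0671% of all, and 2 had an unadjusted p below 0.05 (4.55%, against 7.65%): Ccng2, and Ccnd2 at -0.13 ± 0.057. The interaction called 0 of 44 in limma, against 0.0134% of all, and 4 had an unadjusted p below 0.05 (9.09%, against 14.6%), namely Mcm3, Ccnb2, Cdc5l and Cdc23. No change of a genotype difference with Doxy passed for any member, including those called with Doxy and not without. Intervals lay within 0.5 log2 of 0 for 41 of 44 members in FVBN + Doxy against FVBN control, with Ccnd1, Ccng2 and Cdkn1c beyond it, and for 44 of 44 in tTA + Doxy against tTA.

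Genes that work beside the members were examined in lists of replication origins, the replication fork, nucleotide supply, E2F and RB proteins, mitosis and CDK regulation. Geminin, encoded by Gmnn, blocks the loading of the helicase onto DNA after replication has begun. Gmnn read 5.80, 5.68, 5.69, 5.77 and 5.68 on tTA + Doxy arrays and 6.05, 6.12, 5.98 and 5.96 on FVBN + Doxy arrays. The pair without Doxy read 5.30, 5.57 and 5.71 on tTA arrays and 6.05 and 6.13 on FVBN control arrays. Neither pair overlapped. Gmnn fell by 0.30 on the log2 scale with Doxy (SE 0.063, limma adjusted p = 0.00574) and by 0.54 without (SE 0.075, limma adjusted p = 0.000187). It was called with each array left out in turn, and of the replication origin list of 16 genes, 4 were tested.

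**Figure D4:**
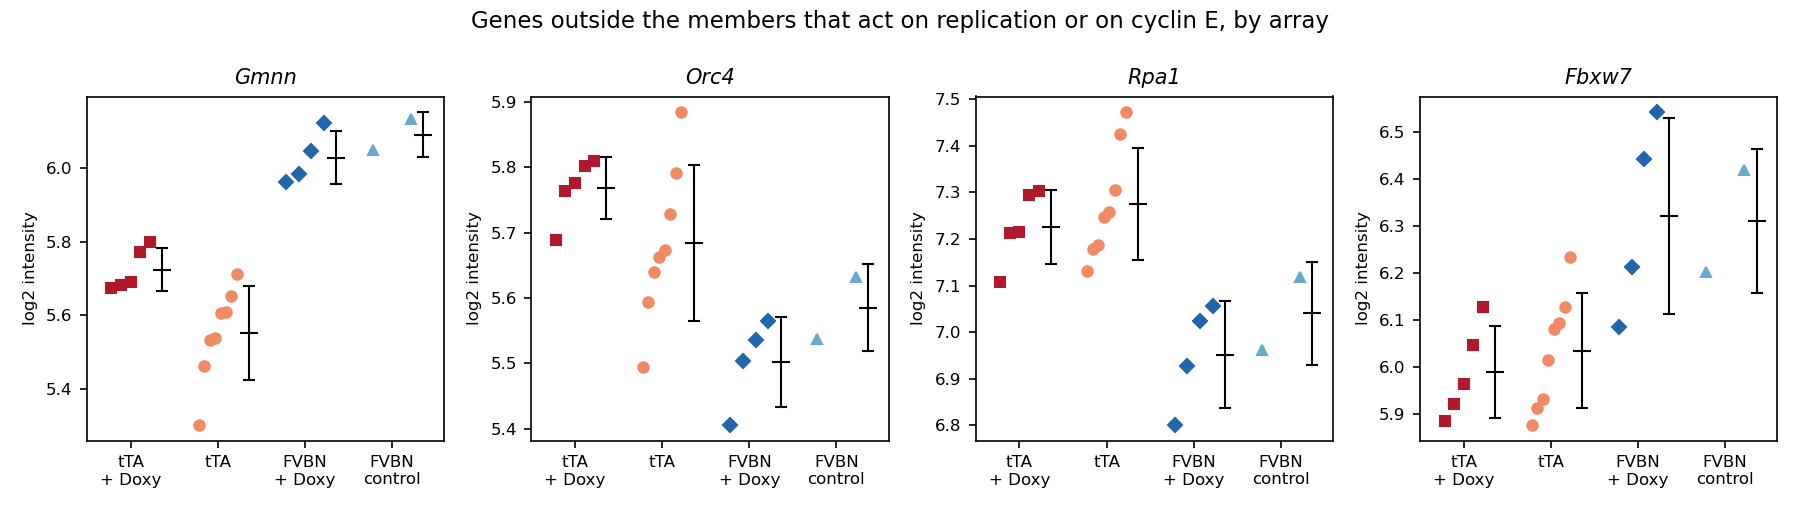
Log2 intensity on every array for 4 genes outside the members that act on replication or on cyclin E, with the 4 groups along each horizontal axis. Points are arrays and bars give the mean and SD of a group. Gmnn on all 13 tTA arrays of both kinds lies below all 6 FVBN arrays.

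Orc4 was the other called gene of that list. It encodes a subunit of the origin recognition complex and was higher in tTA + Doxy than in FVBN + Doxy by 0.27 ± 0.061 (SE, limma adjusted p = 0.0112). Orc4 read 5.76, 5.69, 5.80, 5.78 and 5.81 on tTA + Doxy arrays and 5.41, 5.57, 5.50 and 5.54 on FVBN + Doxy arrays. Of 14 tested fork genes, 13 did not pass in this comparison. Rpa1, a subunit of the protein that coats single-stranded DNA, was higher in tTA + Doxy by 0.27 ± 0.068 (SE, limma adjusted p = 0.0183). It read 7.21, 7.11, 7.29, 7.30 and 7.22 on tTA + Doxy arrays and 7.02, 6.93, 7.06 and 6.80 on FVBN + Doxy arrays, with no overlap. None of the 7 tested genes of nucleotide supply was called. Of 8 tested E2F and RB genes, Max, the partner of Myc, was higher in tTA + Doxy than in FVBN + Doxy by 0.49 ± 0.12 (limma adjusted p = 0.0153). Rbbp7, a histone chaperone that binds RB, was higher there by 0.23 ± 0.063 (limma adjusted p = 0.0302).

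In the mitosis list 1 of 10 tested genes was called in tTA + Doxy against FVBN + Doxy, the spindle checkpoint gene Bub3, which was higher. Its difference was 0.23 ± 0.052 (limma adjusted p = 0.00897), while another Bub3 probe set differed by -0.03 and did not pass. The other 9 differences were below 0 with none called, and 56.1% of all probe sets tested were below 0 in this comparison. The median of the 10 was -0.0501, against -0.0148 over all probe sets. In the average of both genotype differences, Stmn1, which destabilises microtubules, was the only mitosis gene called, at -0.22 ± 0.059 (limma adjusted p = 0.0229), and another of its probe sets had 0.071. Of the E2F and RB genes, Mnt, a repressor that pairs with Max, was called lower in the average at -0.12 ± 0.039 (limma adjusted p = 0.0498). Rbbp7 was called higher there at 0.16 ± 0.048 (limma adjusted p = 0.0442). The call of Stmn1 ended without FVBN control array 8177 or 8182 (limma adjusted p = 0.107 and 0.0931), and that of Mnt with any of 15 arrays left out (0.0544 to 0.41). Of 15 tested CDK regulators, Fbxw7 was lower and Ccni higher in tTA + Doxy than in FVBN + Doxy. Fbxw7, which targets cyclin E for destruction, had -0.33 ± 0.085 (limma adjusted p = 0.0233), with 6.13, 5.92, 5.97, 6.05 and 5.89 on tTA + Doxy arrays and 6.09, 6.44, 6.54 and 6.21 on FVBN + Doxy arrays, which overlapped through array 8337. Ccni, the gene of cyclin I, had 0.15 ± 0.042 (limma adjusted p = 0.0431). With 1 array left out at a time, calls with Doxy ended for Rpa1 (2 arrays), Max (1), Rbbp7 (5), Fbxw7 (4) and Ccni (11), and not for Orc4, Gmnn or Bub3. In the average, Gmnn at -0.42 ± 0.049 (limma adjusted p = 7.01e-06) and Fbxw7 at -0.30 ± 0.066 (0.00476) were also called lower. Rpa1 at 0.255 ± 0.052 (limma adjusted p = 0.00297) and Orc4 at 0.18 ± 0.047 (0.0156) were called higher. Averaged calls ended with 1 array left out for Fbxw7, Rpa1 and Orc4, and with any of 13 for Rbbp7. In tTA against FVBN control, Gmnn was the only call in these 6 lists. There Rpa1 differed by 0.24 ± 0.080 with no overlap (limma adjusted p = 0.119) and Fbxw7 by -0.28 ± 0.10 (limma adjusted p = 0.152). Differences of Orc4, Rbbp7, Ccni, Bub3 and Max there were 0.10, 0.08, 0.05, -0.00036 and -0.02. Doxy itself gave no call in these lists in FVBN or in tTA hearts.

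Some measures of the samples moved with genotype. Beta-actin has control probe sets at both ends of its transcript, and their log2 ratio, 3′ over 5′, averaged 0.338 over the 13 arrays of tTA hearts and 0.522 over the 6 arrays of FVBN hearts. The difference was -0.185 (exact two-sided permutation p = 0.00059, adjusted over 3 tests 0.00177). With this ratio as a covariate in limma, none of Ccng2, Mcm2, Mcm3, Cdc5l, Cdk18 and Ccnd3 passed in any genotype comparison. Their differences kept their direction. With Doxy, Mcm3 had -0.249 (adjusted p = 0.0545), Mcm2 -0.192 (0.0785), Cdc5l 0.243 (0.0705) and Ccng2 -0.243 (0.12). Mybl2 was then the only member called, at -0.214 with Doxy (limma adjusted p = 0.0205), and the part of RNA quality in these differences was not tested further. The same log2 ratio for the Gapdh control probe sets ran from -0.1165 to 0.1276 on arrays of tTA hearts. On arrays of FVBN hearts it ran from -0.0403 to 0.1226, so that the genotypes overlapped, and its difference was not tested.

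Markers of other cell types were also read. Of 11 tested smooth muscle and pericyte markers, Acta2 fell by 1.27 and Abcc9 by 0.66 on the log2 scale without Doxy (limma adjusted p = 0.00151 and 0.0131), and with Doxy Acta2 fell by 0.66 (0.0278) and Smtn rose by 0.26 (0.0193). Their summed intensity was 1620 to 1842 on tTA + Doxy arrays, against 1795 to 1980 on FVBN + Doxy arrays, and 1577 to 1751 on tTA arrays, against 1987 to 2075 on FVBN control arrays. The sum of 12 endothelial markers, of which Emcn fell without Doxy, was 2567 to 2784 on tTA + Doxy, against 2664 to 3133 on FVBN + Doxy, and 2697 to 2954 on tTA, against 3036 to 3126 on FVBN control arrays. Sums of 14 fibroblast markers overlapped in both pairs, and with Doxy were 4458 to 4899 on tTA + Doxy arrays, against 4871 to 5124 on FVBN + Doxy arrays. Among the fibroblast markers Fbln1 alone fell with Doxy, and among 13 macrophage and leukocyte markers Cd14 alone. None of 3 erythroid markers was called, and their sum was 2501 to 5422 on tTA + Doxy arrays, against 5166 to 5671 on FVBN + Doxy arrays. Of the 14 heart muscle markers Ryr2 and Ckmt2 fell with Doxy, and Ryr2 without it. In the average of both genotype differences, all 12 endothelial markers were below 0 (49.6% of all probe sets) and 3 were called lower: Cav1 at -0.21, Cdh5 at -0.20 and Emcn at -0.19. There Lyz2 at -0.28 and Csf1r at -0.14 were called lower among macrophage and leukocyte markers, Fbln1 at -0.18 among fibroblast markers, and Acta2 at -0.96 and Abcc9 at -0.52 among smooth muscle and pericyte markers, where Smtn was called higher at 0.22. Of the heart muscle markers Ryr2, Ckmt2, Ckm and Hrc were called lower. No marker measured was at the floor on every array. The part of these cell types in the members' differences was not tested.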

How the data were processed

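RNA of mouse heart ventricle was hybridised to Affymetrix arrays, and the authors deposited a table of 20 arrays with 1 linear intensity per probe set. How the deposited intensities were made from the scans is not given in the sources used here. Array medians ran from 60.74 to 62.45, and precision is limited by how many arrays each group has. Removing 66 control probe sets left 12422, and 10833 of these named 1 gene in the platform annotation. Intensities were quantile normalized, raised to a floor at the 10th percentile (14.37) and put on the log2 scale, and the brightest 60% (7453 probe sets) were tested. The means of the 4 groups were fitted to 19 arrays with limma 3.58.1 in R 4.3.3 (eBayes with trend and robust, Benjamini-Hochberg adjustment, threshold 0.05) for 6 comparisons, and the steps were tested on simulated data. One array with no group in its labels entered no comparison. Members and gene lists were chosen with earlier results of these data known. Values by array (for the 8 tTA arrays the lowest, median and highest) are given for members called in any comparison and for 26 core genes, of which 24 were on the array; other genes were named only where called in a list, at most 4 per direction. Alternatives changed the scaling, the floor, the filter, the variance model, the arrays used and the beta-actin covariate, left out each array in turn and read other probe sets of a gene. The beta-actin ratio after quantile normalization was added after seeing the data. Promoters came from RefSeq (GRCm38.p6). Figures were drawn with matplotlib 3.10.9 in Python 3.11.15.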

Additional observations from a re-analysis of the deposited data

Results flagged for a closer look

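Of 78 groups of log2 intensities, from the members called and the members of the core cycle, 4 held 1 array far from the others by Dixon's test at the 95% level, which chance gives in about 5% of groups. For Cdc5l, tTA + Doxy array 7486 read 7.3, and the other 4 arrays of that group 7.05 to 7.1. For Mcm3, FVBN + Doxy array 8337 read 7.21, and the other 3 arrays 6.97 to 6.99. For Mcm2, tTA array 7311 read 6.42, and the other 7 arrays 6.57 to 6.66. For Cdkn1b, which was too dim to be tested, tTA array 7310 read 4.96, and the other 7 arrays 4.56 to 4.73. Without array 8337 no member was called for tTA + Doxy against FVBN + Doxy, and without array 7486 only Ccng2 was.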

How the results depend on the processing

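Alternatives changed calls more than directions. In tTA against FVBN control the count of members called was 1, and it was 0 with all probe sets tested, with the brightest 40% (where Ccng2 was too dim to enter), with the beta-actin ratio in the model and with only the arrays compared, and 0 to 1 with each array left out. In tTA + Doxy against FVBN + Doxy it was 4, and it was 0 with all probe sets, 1 with the beta-actin ratio, up to 5 in other settings, and 0 to 5 with each array left out. In the average of both genotype differences it was 4, and it was 0 with the beta-actin ratio, up to 5 in other settings and 1 to 4 with each array left out. For the other 3 comparisons it was 0 throughout. The beta-actin difference ran from -0.208 to -0.169 with each array left out and was -0.178 after quantile normalization. Calls of all probe sets fell to 149 and 282 in the pairwise genotype comparisons with all probe sets tested. With the beta-actin ratio they were 27 and 404, and 210 in the average. Values of another probe set of the same gene had the opposite sign for Bub3 with Doxy (-0.0316) and for Stmn1 in the average (0.071), where the brightest had 0.23 and -0.22; the cause was not tested. No other called member, and no other called gene of the lists from replication origins to CDK regulation, changed direction in any setting. Whether the called markers of cell types, those of heart muscle included, or Cdkn1a kept their direction in these settings was not tested. No paired analysis was possible because the array numbers are not shared between groups.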

Other observations

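One array whose labels give no group read 6.5 for Ccng2, 6.52 for Mcm2, 6.92 for Mcm3, 6.97 for Cdc5l and 6.87 for Cdk18, within the ranges of the 19 grouped arrays of 5.7 to 6.52, 6.42 to 6.84, 6.71 to 7.21, 6.75 to 7.29 and 6.77 to 7.13, in the same gene order. For Ccnd3 it read 7.56, below the lowest grouped array at 7.57. Its Ccng2 value lay above every tTA and tTA + Doxy array, the highest of which read 6.34. That value lay between the FVBN control arrays at 6.37 and 6.52. The title of this array is Cardiac tTA expression, which was not taken as naming a group.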
